A study of Rattus norvegicus with 15 samples.

Results

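The amino acid transporters described here are the 53 genes of the solute carrier families Slc1a, Slc3a, Slc6a, Slc7a, Slc36a, Slc38a and Slc43a that the array measured under a single gene symbol, out of 14217 genes with a single symbol. The rule uses gene symbols and no signal. In all, 72 probe sets carried these symbols, and for each gene the probe set with the highest mean log2 signal over all 15 arrays was used. 41 genes had 1 probe set and 12 had several. Slc3a1 and Slc3a2 are no carriers themselves but heavy chains that bring light-chain carriers to the membrane, and Slc7a6os is a gene next to Slc7a6 that shares its name. The Slc6a family also holds carriers of taurine, creatine, GABA and monoamines, which were kept because the symbols include them.

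The study compared kidneys of male rats aged 10-12 weeks on Affymetrix Rat Genome 230 2.0 arrays, with 5 kidneys and 5 arrays in each of 3 groups. Untreated native kidneys from Lewis Brown Norway (LBN) animals formed the control group (ctr). In the syngeneic group (sTX) an LBN kidney was grafted into an LBN rat, which carries the surgery and ischaemia of transplantation without a mismatch of donor and host. In the acute group (aTX) the LBN kidney went into a Lewis rat, in which acute rejection develops. Recipients lost both own kidneys at surgery and received no immunosuppression, and the grafts were taken on day 4. These strains are those of the methods and the series description, whereas the source names state that Lewis kidneys went into Lewis rats (sTX) or into LBN rats (aTX). A treatment field calls sTX 4 and sTX 5 allogeneic, against their titles, so results were repeated without them. The controls are described as the second kidneys of the donors, so some ctr and graft arrays may come from the same animal, without a record here of which.

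Amino acids filtered by the glomerulus are recovered almost completely in the proximal tubule. Carriers of the brush border take them up from the urine by sodium coupling, exchange or proton coupling, and carriers of the basolateral membrane pass them on to the blood. Other members of the same families feed dividing or activated cells, empty the lysosome, or clear transmitters around neurons, and osmolyte carriers hold taurine and creatine in renal cells. The heavy chain Slc3a1 pairs with Slc7a9 and Slc7a13 in the brush border, and Slc3a2 pairs with Slc7a5, Slc7a6, Slc7a7 and Slc7a8.

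Signals were MAS5 intensities scaled to a trimmed mean of 100 on every array, and array medians ran from 24.3 to 30. The ratio of 3' to 5' Gapdh signal was 1.17 ± 0.047 in ctr, 1.10 ± 0.024 in sTX and 1.04 ± 0.025 in aTX (SD, n = 5), and that of actin was 1.74 ± 0.168, 1.51 ± 0.0596 and 1.23 ± 0.0578. Both ratios moved with the groups, and their part in the results was not tested. By the hybridization times in the instrument records the arrays fell into 2 sets, taken here as wash and stain runs. The first run held the 5 ctr arrays and 3 aTX arrays and the second held the 5 sTX arrays and 2 aTX arrays, so run and group cannot be told apart directly between ctr and sTX. Of the 53 genes, 29 reached a geometric mean signal of 50 in at least 1 group, and the other 24 stayed below it.

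More transporters were lower than higher in the acute group. Against ctr, 9 of the 53 genes were higher and 19 were lower in aTX (limma, Benjamini-Hochberg adjusted p below 0.05 over all 31042 probe sets), where 27.7% of all genes were higher and 27.7% were lower. That makes 17% of the transporters higher and 35.8% lower. Of the 29 transporters that reached a geometric mean of 50 in a group, 27.6% were higher and 62.1% lower. Of all 9064 genes that did, 36.8% were higher and 36.1% lower. In sTX against ctr, 3 of the 53 transporters were higher and 8 lower, beside 16.1% and 8.86% of all genes. In aTX against sTX 8 of the 53 were higher and 18 lower, beside 19.8% and 28.4%. The median log2 change of the transporters was -0.36, -0.04 and -0.34 in these comparisons, against -0.03, 0.08 and -0.13 over all genes, and the sTX value turned positive without sTX 3, sTX 5, ctr 3 or ctr 5 and with an offset of 16 added to the signals. Centring each array on its median in place of the trimmed mean moved the median of all probe sets in sTX against ctr from 0.088 to -0.11, the split of all genes there to 8.57% higher and 21.3% lower, and the transporters to 0 higher and 14 lower. In aTX against sTX the same centring gave 24.6% of all genes higher and 21.7% lower. The signals of the groups did not overlap for 24 transporters in aTX against ctr, 7 in sTX against ctr and 27 in aTX against sTX, beside 45.4%, 18.9% and 39.9% of all genes. The comparisons share arrays, so their counts are not independent of each other.

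The counts differed from role to role. In aTX against ctr, 6 of 8 brush-border genes, 6 of 8 basolateral genes and 3 of 3 osmolyte genes were lower, and 1 of these 19 genes was higher. Of the 13 genes of growth-related uptake 4 were higher and 1 was lower. Of all genes 27.7% were higher and 27.7% lower, so the 30.8% of growth-related genes higher lay near the general share. Of these 13 genes 7 stayed below a geometric mean of 50 in every group and were not called. Of 6 lysosomal or intracellular genes 2 were higher and 1 lower, and of 14 neuronal-type genes 1 was higher and 2 lower. In bulk tissue, fewer cells of a type and less RNA per cell cannot be told apart. The roles were assigned from general knowledge of the carriers.

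Marker genes of several cell types moved with the groups. All 14 proximal tubule markers (Ggt1 among them also stands in the list of transport partners) were lower in aTX than in ctr, and 4 were lower in sTX, with summed signals of 29103.7 to 39089.1 in ctr, 27717.6 to 32661 in sTX and 14470.8 to 18510.9 in aTX. The 9 T-cell markers were all higher in aTX (summed signal 129.1 to 216.4 in ctr, 228.3 to 363.9 in sTX and 1948.4 to 3105.2 in aTX), as were the 8 macrophage markers (1917.8 to 2445.8, 3074.3 to 4558.5 and 8800.2 to 12029.4). Thick limb and distal markers were lower for 7 of 8, podocyte markers for 4 of 4 and endothelial markers for 6 of 6, and the 3 measured B-cell markers had adjusted p values from 0.39 to 0.75 (limma). No marker was at a signal of 0 on any array. In sTX against ctr, 3 of the 9 T-cell and 7 of the 8 macrophage markers were higher. In aTX against sTX, 8 T-cell and 7 macrophage markers were higher and 1 macrophage marker was lower. Over all genes 27.7% were higher and 27.7% lower in aTX against ctr. The shares were 16.1% and 8.86% in sTX against ctr, and 19.8% and 28.4% in aTX against sTX. Markers of the labelled tissue were present, with Slc34a1, the sodium-phosphate carrier of the proximal tubule, at 4183 ± 619 in ctr. The part of cell content in the transporter changes was not tested.

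**Figure D1:**
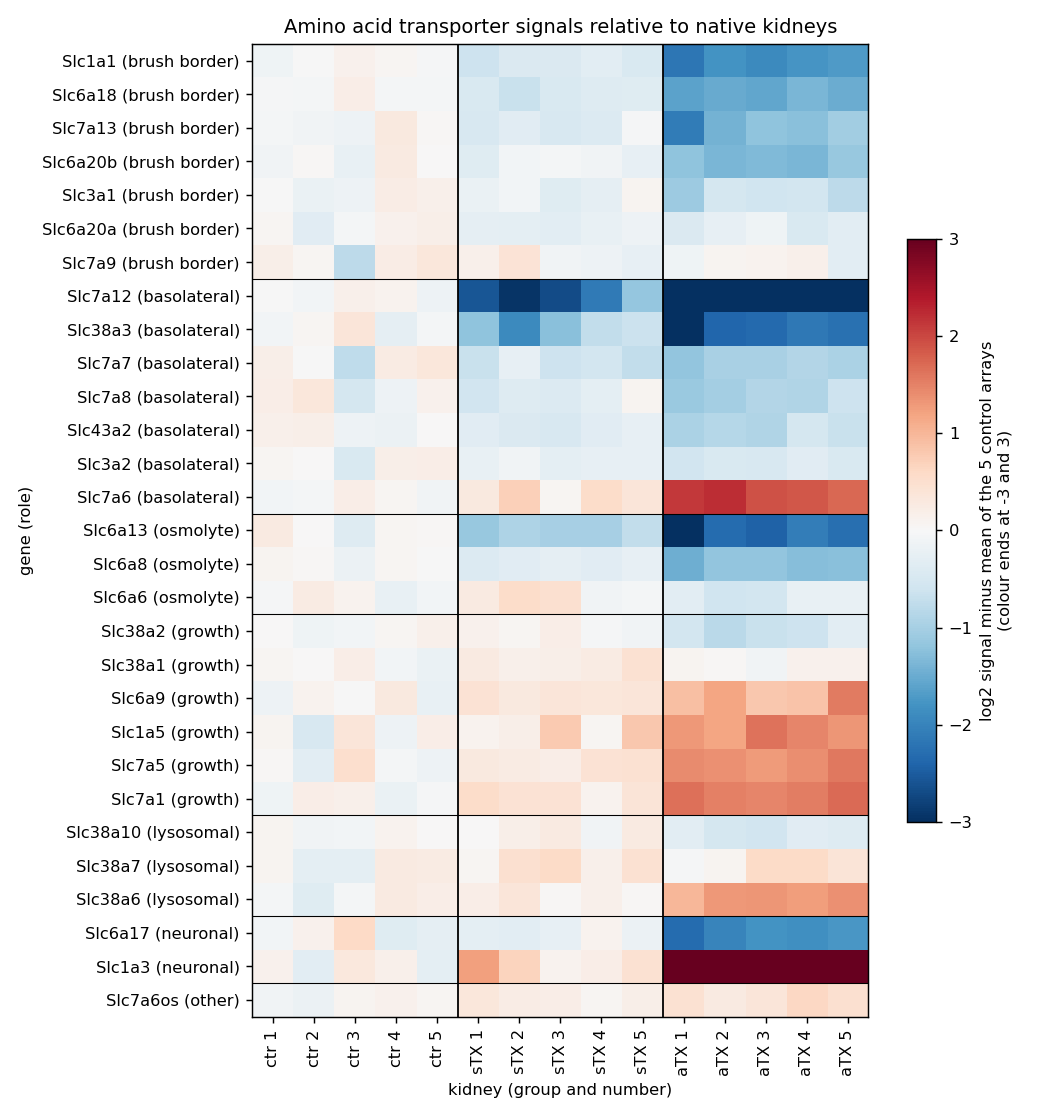
Log2 signal of the 29 transporter genes that reached a geometric mean of 50 in a group (rows, ordered by role) in each of the 15 kidneys (columns), as the difference from the mean of the 5 control arrays. Blue is lower and red higher. The 5 aTX columns are blue for most brush-border, basolateral and osmolyte genes and red for Slc7a6, Slc7a1, Slc7a5, Slc1a5, Slc6a9, Slc38a6 and Slc1a3, and Slc7a12 and Slc38a3 are blue in the sTX columns too.

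Among brush-border carriers, Slc1a1, the glutamate and aspartate carrier of the proximal tubule, had the largest fall. Its signals were 877.8, 940.7, 1035.5, 987.9 and 938.4 in ctr 1 to 5, 619.1, 702.2, 705.8, 765.5 and 693.2 in sTX, and 212.1, 273.6, 252, 281.9 and 292.4 in aTX. The groups formed 3 separate steps, with every ctr kidney above every sTX kidney and every sTX kidney above every aTX kidney. Slc1a1 was 3.66-fold lower in aTX than in ctr (log2 change -1.87 ± 0.082 (SE), adjusted p 4.4e-13) and 1.37-fold lower in sTX than in ctr (adjusted p 0.00049, limma). Its other probe set fell in aTX as well, by 1.66 on the log2 scale, but was not called in sTX.

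Slc6a18, a carrier of glycine and other neutral amino acids, showed the same order. It read 1197.8, 1188.2, 1422.5, 1172.8 and 1185.8 in ctr, 902.7, 774.6, 902.8, 933.3 and 957.6 in sTX, and 406.1, 430.4, 417.1, 477.5 and 435.3 in aTX. No group overlapped another. The fall was 2.84-fold in aTX (adjusted p 1.5e-12) and 1.38-fold in sTX (adjusted p 0.00012, limma).

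Slc7a13, the aspartate and cystine carrier of the late proximal tubule, read 3404, 3321.8, 3170.6, 4329.4 and 3641.5 in ctr and 2551.2, 2804.9, 2552.7, 2671 and 3485.9 in sTX. In aTX it read 823.2, 1326.6, 1534.1, 1494.5 and 1736.4. All aTX kidneys lay below all others, and aTX 1 was the lowest, while sTX 5 reached into the ctr range. It was 2.65-fold lower in aTX than in ctr (adjusted p 1.7e-07) and was not called in sTX (log2 change -0.35, adjusted p 0.13, limma).

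Slc6a20a and Slc6a20b, neighbouring genes for proline and other imino acid carriers, differed in size. Slc6a20b read 527.1, 586.3, 490.3, 692 and 580.5 in ctr, 440.9, 542, 551.4, 529 and 480 in sTX, and 247.1, 221.5, 227.5, 222.6 and 260.5 in aTX. Only its aTX kidneys stood apart, 2.43-fold below ctr (adjusted p 2.3e-10). Slc6a20a was 149 ± 20.3 in ctr, 125 ± 5.34 in sTX and 119 ± 11.2 in aTX (SD, n = 5), with overlapping groups and a 1.25-fold fall in aTX (adjusted p 0.0089, limma). That call on Slc6a20a was lost within the first wash run and in a fit blocked by run. The 2 genes are close relatives, so cross-hybridisation between their probes cannot be told apart from their own signals.

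The heavy chain Slc3a1 and its light chain Slc7a9 are the 2 genes mutated in cystinuria. Slc3a1 read 5716.1, 4957, 5144.4, 6628.1 and 6372.2 in ctr, 5008.5, 5423.2, 4481.7, 4780.4 and 6035.1 in sTX, and 2700.2, 3989.7, 3760, 3912.6 and 3340.6 in aTX. The aTX kidneys were all below the rest, and sTX overlapped ctr. The fall in aTX was 1.63-fold (adjusted p 3.7e-05, limma). Slc7a9 read 1455.2, 1354, 747.8, 1507.9 and 1628.5 in ctr, 1437, 1707.7, 1201.5, 1165.6 and 1093.3 in sTX, and 1188.4, 1359.5, 1384.4, 1428.3 and 1046.5 in aTX. Its groups overlapped throughout, and ctr 3 lay far below the other controls. The log2 change of Slc7a9 in aTX against ctr was -0.02 (95% interval -0.37 to 0.33, adjusted p 0.93), and -0.22 without ctr 3 (adjusted p 0.15, limma). Slc36a2, an imino acid carrier, had geometric means of 9.6, 5.0 and 10.4 and was not called.

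The 250 bases before the start of Slc3a1 in the RefSeq promoter table are shown because this heavy chain fell in the acute group while its light chain was not called, with a match to the HNF4 letters CAAAGTCCA in capitals (on this strand, their reverse complement). HNF4 is a factor of proximal tubule cells. The window lies at chr6:15394750-15394999 on the minus strand of GRCr8 (RefSeq) and is written 5' to 3'. That start lies 1946 bases inside the annotated gene, whose outer start is further upstream, so the window is within the gene.
Slc3a1 upstream: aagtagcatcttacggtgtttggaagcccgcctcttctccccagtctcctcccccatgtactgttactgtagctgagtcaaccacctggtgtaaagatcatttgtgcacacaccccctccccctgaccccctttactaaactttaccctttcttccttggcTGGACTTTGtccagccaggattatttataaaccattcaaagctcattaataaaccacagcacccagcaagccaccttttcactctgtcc
These letters occurred on either strand in 0.338% of the 33469 promoter windows of the same length, and Slc3a1 was the only one of the 41 transporters with a window that held them. The gene Hnf4a itself was lower in aTX, with signals of 2006 ± 177 in ctr, 1554 ± 170 in sTX and 884 ± 85.3 in aTX (SD, n = 5, adjusted p 6.4e-10 for aTX against ctr, limma). A match in a sequence is a description and not a site of binding. Whether Hnf4a had a part in the change of Slc3a1 was not tested.

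Among basolateral genes Slc7a12 had the largest fall of all transporters. Slc7a12 is a relative of the small neutral amino acid exchangers whose membrane side in the tubule is less settled than that of the other carriers. It read 1163.3, 1115.3, 1311.1, 1258.1 and 1062.7 in ctr, 198.5, 152.7, 184.3, 270.4 and 529.7 in sTX, and 21.7, 92.8, 110.3, 43.1 and 53 in aTX. Each group lay entirely below the one before it, although sTX 5 stood well above the other sTX kidneys and the aTX kidneys spread from 21.7 to 110.3. The signal was 21.4-fold lower in aTX than in ctr (log2 change -4.42, 95% interval -5.14 to -3.70, adjusted p 1.6e-09) and 4.91-fold lower in sTX than in ctr (log2 change -2.29, adjusted p 7.9e-05, limma). With the wash run as a block the log2 change in sTX was -1.13 (adjusted p 0.31), while within the first run that in aTX was -3.95 (adjusted p 1.5e-08). Against sTX the log2 change in aTX was -2.12, and within the second run it was -2.82 (adjusted p 0.00044, limma).

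The upstream window of Slc7a12 is given because no other transporter fell as far. It lies at chr2:88868104-88868353 on the minus strand of GRCr8, and the capitals mark the letters GTTAATNAT of the hepatocyte nuclear factor 1 (HNF1) motif. The start behind this window lies 14 bases inside the annotated gene.
Slc7a12 upstream: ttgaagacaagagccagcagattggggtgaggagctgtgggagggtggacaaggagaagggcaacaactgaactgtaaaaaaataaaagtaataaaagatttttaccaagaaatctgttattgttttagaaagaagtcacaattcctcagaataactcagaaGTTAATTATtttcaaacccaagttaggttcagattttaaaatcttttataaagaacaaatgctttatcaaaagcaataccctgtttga
The match lies 88 to 80 bases before that start. The letters were found in 0.666% of all windows, on either strand, and Slc7a12 was the only transporter that held them.

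Slc38a3 imports glutamine, the fuel of renal ammonia production. It read 351.3, 382.9, 477.6, 304.2 and 352.1 in ctr, 159.3, 98.2, 154.4, 222.7 and 234.8 in sTX, and 43.8, 71.4, 73.1, 83.6 and 77.9 in aTX. The 3 groups were again separate, in the order ctr, sTX, aTX, with aTX 1 below the other aTX kidneys. The fall was 5.41-fold in aTX (adjusted p 3.8e-09) and 2.22-fold in sTX (adjusted p 0.00038, limma).

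Of the exchangers that pair with Slc3a2, Slc7a7, which releases cationic amino acids to the blood and is mutated in lysinuric protein intolerance, read 1712.8, 1515.5, 897.9, 1811.8 and 1912.5 in ctr. In sTX it read 956.2, 1273.7, 989.9, 1042.6 and 904.4, and in aTX 674, 771.5, 770.5, 823.9 and 781.3. The control ctr 3 lay below every sTX kidney while the other 4 controls lay above them all, and aTX lay below both groups. Slc7a7 was 1.99-fold lower in aTX (adjusted p 1.4e-05) and 1.48-fold lower in sTX (adjusted p 0.012, limma). The call on Slc7a7 in sTX was lost without sTX 4 and 5, with the methods' t-test and with the wash run block. Its call in aTX against sTX was also lost without sTX 4 and 5.

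Slc7a8, an exchanger of neutral amino acids, read 262.1, 287.6, 159.8, 206.8 and 251.3 in ctr, 152.4, 175.6, 171.8, 186.3 and 243.1 in sTX, and 106.3, 113, 125.2, 122.5 and 148.7 in aTX. The ctr and aTX kidneys were separate while sTX overlapped ctr. It was 1.87-fold lower in aTX (adjusted p 2.5e-05) and not called in sTX (adjusted p 0.14, limma). Slc43a2, a facilitator of branched-chain and aromatic amino acids, was 387 ± 42.8 in ctr, 299.8 ± 19.8 in sTX and 226 ± 29.1 in aTX (SD, n = 5) and was called lower in all 3 comparisons (adjusted p 3.9e-07 for aTX against ctr, limma). Its lowest probe set was not called in sTX against ctr. The heavy chain Slc3a2 was 1416 ± 233, 1199 ± 54.2 and 1019 ± 61.5, 1.37-fold lower in aTX than in ctr (adjusted p 0.0005, limma) with overlap through ctr 3. Slc7a10 was dim, with geometric means of 8.9 or below, and was not called. Without aTX 3 it was called in aTX against ctr and in aTX against sTX.

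Slc7a6 went the other way. It is a widely expressed exchanger of cationic for neutral amino acids and the close relative of Slc7a7. It read 41.2, 41.6, 49.9, 45 and 40.6 in ctr, 53.4, 71.1, 45.1, 63.4 and 56.3 in sTX, and 190.1, 200.9, 162.9, 158.5 and 143.1 in aTX. Every aTX kidney was above every other kidney, and sTX overlapped ctr through sTX 3. It was 3.9-fold higher in aTX (log2 change 1.96, adjusted p 6.6e-11, limma). The 1.31-fold rise in sTX (adjusted p 0.032) was lost without sTX 4 and 5 and with several single arrays left out. Its neighbour Slc7a6os read 68.6 ± 5.8, 78.6 ± 5.59 and 92.7 ± 8.44 and rose 1.35-fold in aTX (adjusted p 0.00065, limma). The 2 genes lie 1.7 kb apart on chromosome 19 in GRCr8.

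**Figure D2:**
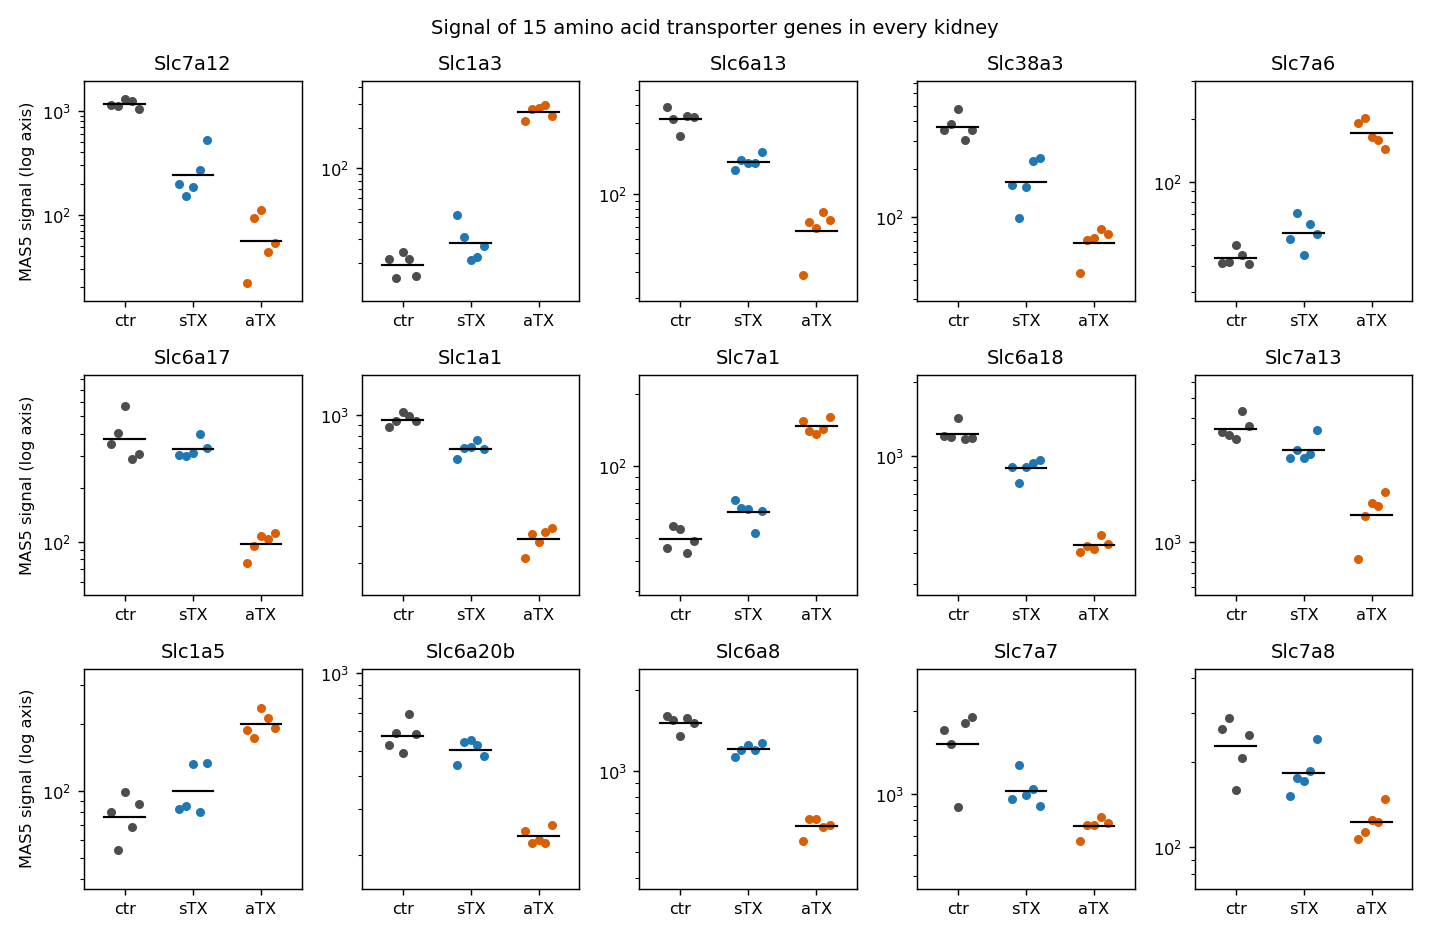
MAS5 signal (log axis, each panel with its own range) of the 15 transporters with the largest called changes among genes whose brighter group had a geometric mean of 100 or more, with 1 point per kidney and a bar at the geometric mean of the 5 kidneys of a group. For 11 of the 15 genes the aTX points lie below all ctr points, with falls from 1.87-fold to 21.4-fold, and Slc1a3, Slc7a6, Slc7a1 and Slc1a5 lie above them.

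All 3 osmolyte carriers were lower in the acute group. Slc6a13, a carrier of GABA and taurine, read 384.5, 322, 247, 336 and 331.5 in ctr, 146.1, 170.2, 161.8, 162.2 and 191.3 in sTX, and 28.5, 65.3, 59.3, 76 and 67.4 in aTX. The groups were separate, and aTX 1 lay below the other aTX kidneys. The fall was 5.7-fold in aTX (adjusted p 1e-09) and 1.94-fold in sTX (adjusted p 0.0013, limma), and the sTX log2 change moved from -0.95 to -0.35 with the wash run as a block (adjusted p 0.64). The creatine carrier Slc6a8 read 1597.2, 1543.1, 1345.4, 1575.8 and 1506.7 in ctr, 1128.3, 1193.8, 1250.2, 1195.7 and 1267.5 in sTX, and 548.3, 662.1, 665.7, 621.5 and 633.2 in aTX. Again no group overlapped another, and both of its probe sets were called lower in all 3 comparisons, by 2.42-fold in aTX against ctr for the one used (adjusted p 5.9e-12, limma).

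The taurine carrier Slc6a6 had another order, with 674 ± 83 in ctr, 796 ± 160 in sTX and 516 ± 63.3 in aTX (SD, n = 5). It was 1.31-fold lower in aTX than in ctr (adjusted p 0.015) and 1.53-fold lower than in sTX (adjusted p 0.00045, limma), and the ctr and aTX signals overlapped.

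Of the 9 genes higher in aTX than in ctr, 4 were carriers known from growing and activated cells. They made up 30.8% of the growth-related genes, beside 27.7% of all genes that were higher. Slc7a1, the main importer of arginine and lysine of most cells, read 45.2, 56.2, 54.5, 43.1 and 48.4 in ctr, 72, 66.8, 66, 52.6 and 64.7 in sTX, and 154.4, 140.8, 136.5, 143.6 and 160.9 in aTX. The aTX kidneys stood far above all others, and only sTX 4 reached into the ctr range. It was 2.99-fold higher in aTX (adjusted p 1.3e-10) and 1.3-fold higher in sTX (adjusted p 0.014, limma), and of its 3 probe sets the 2 brighter were called higher in aTX while the dimmest was not. The call on Slc7a1 in sTX was lost with quantile normalization, median centring, the methods' t-test, the wash run block and the lowest probe set.

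The upstream window of Slc7a1 is shown because this gene is a known target of the amino acid response, in which uncharged transfer RNA leads to Atf4 activity. The window lies at chr12:11664238-11664487 on the plus strand of GRCr8, and the capitals mark the core letters TGATGNAA of the amino acid response element.
Slc7a1 upstream: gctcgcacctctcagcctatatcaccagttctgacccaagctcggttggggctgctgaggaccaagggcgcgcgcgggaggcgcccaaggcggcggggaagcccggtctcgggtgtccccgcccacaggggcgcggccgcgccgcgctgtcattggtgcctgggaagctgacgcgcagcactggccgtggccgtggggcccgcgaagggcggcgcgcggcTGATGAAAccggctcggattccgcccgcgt
The match lies 30 to 23 bases before the annotated start. These letters were found in 3.4% of all windows on either strand, and among the transporters also in Slc1a4 and Slc38a1, neither of which was called.

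Slc1a5, a glutamine carrier, read 80.1, 54.3, 98.7, 68.7 and 87.1 in ctr, 82.5, 85.8, 131.8, 79.9 and 133.6 in sTX, and 186.9, 172.8, 235.9, 211.2 and 191.9 in aTX. The aTX kidneys were above all others, and sTX 3 and sTX 5 were above the controls while the other sTX kidneys overlapped them. It rose 2.61-fold in aTX (adjusted p 6.9e-07, limma). Slc7a5, the leucine and large neutral amino acid exchanger, rose 2.65-fold from 28 ± 6.36 in ctr to 73.1 ± 5.37 in aTX (SD, n = 5, adjusted p 6.7e-08), and the glycine carrier Slc6a9 rose 2.09-fold from 29.9 ± 4.34 to 63.2 ± 15.2 (adjusted p 6.9e-06, limma). Both were uncalled in sTX, at 34.5 ± 2.62 and 38.1 ± 1.53. With its lowest probe set Slc6a9 was still called higher in aTX against ctr, but was not called in aTX against sTX.

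The amino acid carrier Slc38a2, which is induced by hypertonicity and amino acid shortage in many cells, fell 1.51-fold in aTX (553 ± 45.1, 572 ± 46 and 367 ± 47.7 in ctr, sTX and aTX, SD, n = 5, adjusted p 6.7e-06, limma). Its neighbour on chromosome 7, Slc38a1, was 71.1 ± 7.75, 85.1 ± 7.41 and 73.6 ± 4.63 and was not called on its brightest probe set, although its 2 dimmer probe sets were called higher in aTX, by log2 changes of 1.03 and 2.67. The cystine-glutamate exchanger Slc7a11 was dim, with geometric means of 5.5, 8.1 and 10.7, and was not called. The other 6 growth-related genes, Slc1a4, Slc6a14, Slc38a5, Slc43a1, Slc7a2 and Slc7a3, stayed below a geometric mean of 50 and were not called in any comparison.

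**Figure D3:**
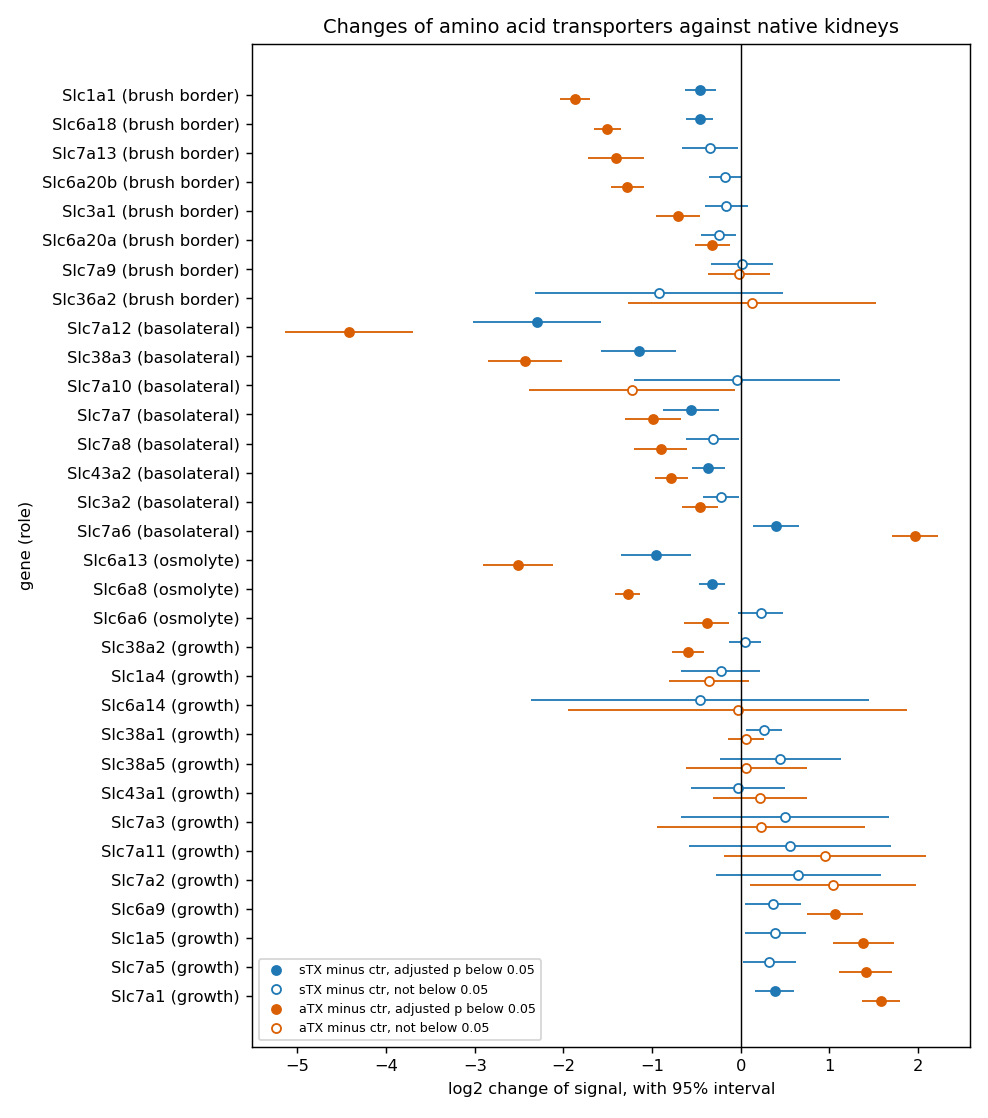
Log2 change of signal with its 95% interval (limma) for the 32 genes of the brush-border, basolateral, osmolyte and growth roles, in sTX against ctr (blue) and aTX against ctr (orange). Filled points had an adjusted p below 0.05. Slc7a12 has the largest fall at -4.42 and Slc7a6 the largest rise at 1.96 among them, and Slc7a9 sits at -0.02 with an interval of -0.37 to 0.33.

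Among the remaining genes, Slc1a3, a glutamate carrier best known from glial cells, had the largest rise of any transporter. It read 21.1, 15.5, 24, 21.3 and 15.8 in ctr, 44.9, 30.7, 20.8, 22.1 and 26.4 in sTX, and 224.8, 276.4, 277.7, 295.5 and 246 in aTX. The aTX kidneys lay far above the rest, while 2 of 5 sTX kidneys were within the ctr range. It was 13.7-fold higher in aTX than in ctr (log2 change 3.77, adjusted p 1.6e-12) and 9.44-fold higher than in sTX (adjusted p 3.6e-11). Its 1.45-fold rise in sTX against ctr had an adjusted p of 0.0495 (limma) and was lost under most of the settings tried. Another probe set rose in aTX by 2.32 on the log2 scale, and the dimmest, with geometric means of 8.77, 15.6 and 10.1, was not called. The macrophage and T-cell markers were higher in the same aTX kidneys, and their part in this rise was not tested.

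The upstream window of Slc1a3 is given for this largest rise. Of 3 overlapping windows, the one that borders the outer start of the gene is chr2:59557809-59558058 on the minus strand of GRCr8, and the capitals mark the letters TTTCNNTTT from the interferon-stimulated response element, which all 3 windows hold.
Slc1a3 upstream: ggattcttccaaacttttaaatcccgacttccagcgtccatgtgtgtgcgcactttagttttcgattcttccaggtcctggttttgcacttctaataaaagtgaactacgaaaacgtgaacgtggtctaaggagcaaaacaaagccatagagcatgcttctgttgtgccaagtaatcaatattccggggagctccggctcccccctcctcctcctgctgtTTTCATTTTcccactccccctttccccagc
These letters are common, with 10.3% of all windows holding them on either strand, and among the transporters they were found in Slc1a3 and Slc38a5. The 4 windows are examples from a search for 11 sets of letters that was made after the expression values were known, some of them shortened from longer forms. The other 7 were TTCCNGGAA, TTCNNNGAA, GGGACTTTC, GGGAATTTC, CACGTG, TGACGTCA and TGACNNNGC. The first 4 of these matched no transporter, CACGTG matched 7 (5.59% of all windows), TGACGTCA matched Slc38a6 (1.59%) and TGACNNNGC matched 8 (10.1%).

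The vesicular carrier Slc6a17, known from neurons, read 349.7, 405, 566, 289.7 and 307.3 in ctr, 302.1, 299.3, 312.2, 398.1 and 331.8 in sTX, and 75.6, 94.4, 108.1, 103.4 and 111.3 in aTX. Only the aTX kidneys stood apart. It was 3.81-fold lower in aTX (adjusted p 1.2e-09, limma), and 3 of its 5 probe sets were called lower. Slc38a6 rose 2.38-fold, from 41.2 ± 6.96 in ctr to 97.3 ± 9.43 in aTX (adjusted p 6.9e-08), and Slc38a10 fell 1.34-fold, from 249.7 ± 16.8 to 186 ± 14.5 (adjusted p 0.00022, limma). The lysosomal glutamine carrier Slc38a7 was not called in any comparison. Among genes below 50 in every group, Slc36a1, a lysosomal proton-coupled carrier, was called higher (log2 change 1.53, adjusted p 0.0042) and the serotonin carrier Slc6a4 lower in aTX against ctr, and Slc7a4 was called lower against sTX alone. The other 21 of these 24 dim genes were not called.

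Within an array, partners of a complex can be set against each other as a ratio, with the controls' mean at 0. These pairs were picked after the values were known, so they are described without a test. The log2 ratio of Slc7a9 to Slc3a1 ranged from -0.64 to 0.27 in ctr, -0.32 to 0.48 in sTX and 0.47 to 0.96 in aTX, with every aTX kidney above every ctr kidney. The ratio of Slc7a13 to Slc3a1 went the opposite way, at -0.12 to 0.11 in ctr, -0.28 to -0.10 in sTX and -1.02 to -0.25 in aTX. Relative to the heavy chain Slc3a2, Slc7a5 was 1.87 ± 0.13 and Slc7a6 2.42 ± 0.25 in aTX (mean log2 ratio ± SD, n = 5), while Slc7a7 was -0.53 ± 0.04 and Slc7a8 -0.44 ± 0.17. The ratio of Slc6a20b to Slc6a20a was -0.96 ± 0.19 in aTX and 0.08 ± 0.17 in sTX.

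**Figure D4:**
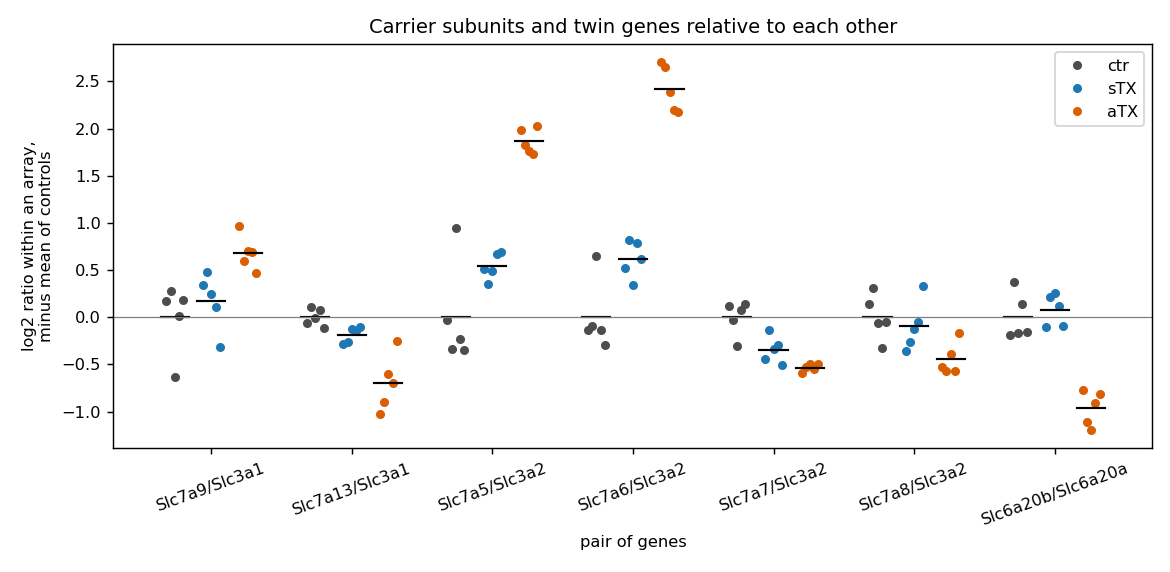
Log2 ratio of 2 genes within an array, minus the mean of the 5 controls, for 7 pairs of carrier and heavy chain or of twin genes, with 1 point per kidney and a bar at the group mean. In aTX the ratios to Slc3a2 lie at 1.87 for Slc7a5 and 2.42 for Slc7a6, and at -0.53 and -0.44 for Slc7a7 and Slc7a8. The lone high ctr points for Slc7a5 and Slc7a6 and the lone low ctr point for Slc7a9 are ctr 3.

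Fewer transporters were called in sTX against ctr than in aTX against ctr, 11 against 28. The same held over all genes, with 16.1% higher and 8.86% lower in sTX and 27.7% and 27.7% in aTX. The 8 genes called lower in sTX against ctr were Slc1a1, Slc38a3, Slc43a2, Slc6a13, Slc6a18, Slc6a8, Slc7a12 and Slc7a7, and the 3 called higher were Slc1a3, Slc7a1 and Slc7a6. Without ctr 3 the count of genes called higher was 5, and without ctr 2, ctr 5 or sTX 2 it was 1. With the wash run as a block 0 transporters were called in sTX against ctr by limma, where 4.94% of all genes were, and 5 of the 11 had an unadjusted p below 0.05. In the same block fit 29 transporters were called in aTX against ctr, 9 higher and 20 lower, beside 25.2% and 26% of all genes. Within the first run alone, with 5 ctr and 3 aTX arrays, 8 were higher and 18 lower, beside 24.1% and 25.1% of all genes. Within the second run, with 5 sTX and 2 aTX arrays, 8 were higher and 18 lower in aTX against sTX, beside 16.9% and 21.5% of all genes.

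The direct comparison set allogeneic against syngeneic grafts, which also differed in host strain and in part in wash run. Here 8 genes were higher in aTX than in sTX (Slc1a3, Slc7a6, Slc7a1, Slc7a5, Slc1a5, Slc6a9, Slc38a6 and Slc36a1), with Slc1a3 furthest at 9.44-fold. The 18 lower genes included Slc7a12 at 4.36-fold, Slc6a17 at 3.35-fold, Slc6a13 at 2.94-fold, Slc1a1 at 2.67-fold and Slc38a3 at 2.43-fold. Slc3a2 and Slc6a20a, lower against ctr, were not called against sTX (adjusted p 0.063 and 0.63, limma).

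The measured genes that work beside the transporters were lower throughout in the acute group. Of 18 genes in the list of transport partners and the peptide route, 13 were measured. All 13 were lower in aTX than in ctr, beside 27.7% of all genes. In sTX against ctr 1 was higher and 7 were lower, beside 16.1% and 8.86% of all genes. In aTX against sTX 11 were lower, beside 28.4%. Slc15a2 and Slc15a1, the kidney's peptide carriers, changed by log2 -2.18 (753 ± 103 in ctr, 477 ± 36.5 in sTX and 167 ± 26 in aTX, adjusted p 2e-12) and -1.76 (adjusted p 5.4e-07). The sodium-proton exchanger Slc9a3 fell by 1.46 (adjusted p 4.7e-08) and the kinase Sgk1 by 1.33 (adjusted p 5.2e-08, limma) on the log2 scale. In sTX against ctr, Sgk1 fell by 1.22 (adjusted p 2e-06, limma), with 3013 ± 551, 1277 ± 41.2 and 1203 ± 270 in ctr, sTX and aTX.

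The amino acid response genes were called in both directions. Of 20 measured, 9 were higher and 7 lower in aTX against ctr, beside 27.7% and 27.7% of all genes. Among all genes reaching a geometric mean of 50 in a group, these shares were 36.8% and 36.1%. In sTX against ctr 2 response genes were higher and 7 lower, beside 16.1% and 8.86% of all genes. In aTX against sTX 11 were higher and 7 lower, beside 19.8% and 28.4%. The enzyme Mthfd2 rose most, from 7.92 ± 4.82 in ctr to 18.7 ± 11.4 in sTX and 129 ± 17.3 in aTX (SD, n = 5, log2 change 4.24, adjusted p 1.5e-07 in aTX against ctr). Wars1, the tryptophan transfer RNA synthetase, rose by log2 2.66 to 1795 ± 180 (adjusted p 9.7e-14), Eif4ebp1, a brake on translation, by 2.35 (adjusted p 1.3e-10), and the asparagine synthetase Asns by 1.31 (adjusted p 5.8e-10, limma). Atf4 itself was 906 ± 129, 749.6 ± 44.8 and 1163 ± 118 in ctr, sTX and aTX, higher in aTX and lower in sTX than in ctr. The serine synthesis enzymes Phgdh, Psat1 and Psph were lower in aTX, with Psph at a log2 change of -1.13 (adjusted p 2.1e-05, limma).

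**Figure D5:**
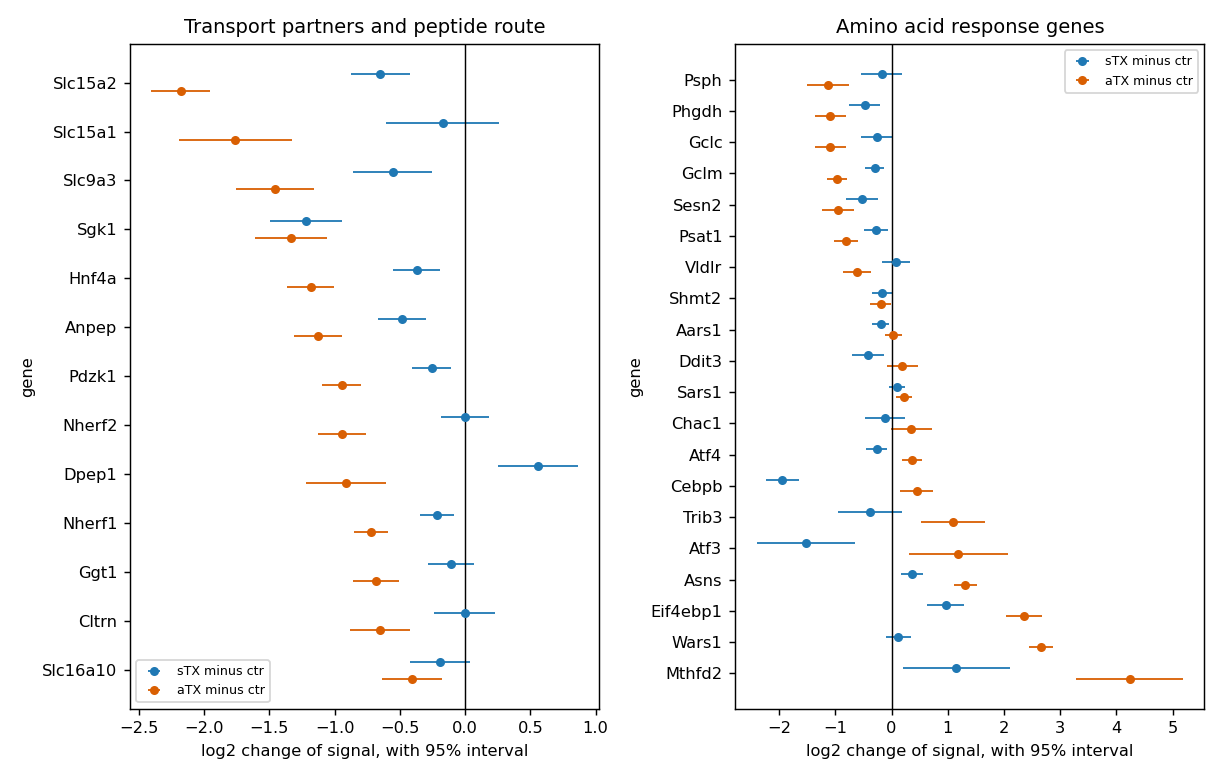
Log2 change of signal with its 95% interval for the 13 transport partner and peptide route genes (left) and the 20 amino acid response genes (right), in sTX against ctr (blue) and aTX against ctr (orange). The 13 partner genes all lie left of 0 in aTX, from -2.18 for Slc15a2 to -0.40 for Slc16a10, and the response genes run from -1.13 for Psph to 4.24 for Mthfd2.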

How the data were processed

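Total RNA of 15 kidneys was hybridised to Affymetrix arrays, and the authors deposited MAS5 signal intensities, 1 value per probe set, scaled to a common mean on every array. No read depth applies to arrays, and the 5 arrays a group limit the precision. The array holds 31099 probe sets, of which 57 are array controls and 31042 were tested. 54 signals of 0 were set to 0.05 before log2. Probe sets were named from GEO's platform annotation, and all 53 transporters matched RefSeq by gene ID under the same symbol. The instrument records deposited with the arrays gave a hybridization date and time for each array. Arrays whose successive times lay no more than 1 hour apart were taken as 1 wash and stain run, so the runs are inferred.

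Groups were taken from the sample titles. All 15 arrays entered a single limma model (version 3.58.1, R 4.3.3) of log2 signals, moderated by eBayes with trend, with Benjamini-Hochberg adjustment over all 31042 probe sets. Levels are given as means ± SD, and folds compare geometric means. The p-values measure the spread between these kidneys. The named genes are all members of the brush-border, basolateral, osmolyte and growth roles and, of the rest, those called with a geometric mean of at least 50; values of every array are given for the 15 largest called changes with a geometric mean of at least 100. The members and gene lists were chosen with earlier results of these data known. Pairs of genes, promoter windows, dim genes and Slc3a1, Slc7a9 and Slc7a11 values beyond that rule were added after values were seen. Upstream windows (250 bases) came from RefSeq, GRCr8, where 41 of the 53 genes had one. Tables and plots used Python 3.11.15, pandas 2.3.3 and matplotlib 3.10.9. The fit was tested on simulated data. Alternatives were quantile normalization, median centring, an offset of 16, a filter on dim probe sets, no intensity trend, the methods' t-test, only the 10 arrays compared, replicate and wash run blocks, single wash runs, the lowest probe set of a gene, and leaving out sTX 4 and 5 or any 1 array.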

Additional observations from a re-analysis of the deposited data

Results flagged for a closer look

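In 6 of the 87 groups of 5 arrays tested, 1 array lay further from the rest than Dixon's 95% limit allows, where chance gives about 1 in 20. The control ctr 3 was low for Slc7a9 (747.8, the others 1354 to 1628.5) and for Slc3a2 (1022, the others 1420.9 to 1596.3), and high for Slc6a18 (1422.5, the others 1172.8 to 1197.8). Among the 29 brighter transporters ctr 3 was the highest control for 10 genes and the lowest for 8, and the lowest ones include Slc7a7, Slc7a8 and Slc7a13. The graft aTX 1 was low for Slc38a3 (43.8, the others 71.4 to 83.6) and for Slc6a13 (28.5, the others 59.3 to 76), and it was the lowest aTX kidney for 16 of the 29 genes. The graft sTX 2 was low for Slc6a18 (774.6, the others 902.7 to 957.6). Leaving out the array concerned ended no call on these genes, and without ctr 3 Slc3a2 was also called lower in sTX against ctr and in aTX against sTX.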

How the results depend on the processing

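In aTX against ctr, 9 genes higher and 19 lower became 8 to 10 and 14 to 21 over all the alternatives, and 18 lower against sTX became 9 with the methods' t-test at an unadjusted p below 0.001, while 8 higher became 5 with the lowest probe set of each gene. With that probe set the log2 change of Slc1a3 in aTX against sTX was -0.64, that of Slc6a17 was 0.068, and those of Slc7a1 were -0.024 in aTX and -0.45 in sTX against ctr. These lowest probe sets were dim. The sTX against ctr calls depended most on the setting. The 3 genes higher became 0 with quantile normalization, median centring, the t-test at an unadjusted p below 0.001 and the wash run block, and 1 with no intensity trend, the adjusted t-test, only the 10 arrays compared and the lowest probe set. Leaving out 1 array gave 1 to 5. The 8 lower became 14 with median centring, 5 with the t-test at the unadjusted p and 0 with the wash run block, and 7 without sTX 4 and 5.

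The median log2 change in aTX against ctr (-0.36) was -0.43 with median centring, with the wash run block and within the first run, -0.0928 with an offset of 16 and -0.46 with the dim filter, and -0.43 to -0.33 with 1 array left out. In aTX against sTX (-0.34) it was -0.14 with quantile normalization, -0.22 with median centring, -0.14 with the offset and -0.43 with the dim filter, and -0.41 to -0.24 with 1 array left out. In sTX against ctr (-0.04) it was -0.12 with quantile normalization, -0.24 with median centring and -0.16 with the dim filter, and -0.12 to 0.052 with 1 array left out, positive without sTX 3 (0.012), sTX 5 (0.047), ctr 3 (0.013) and ctr 5 (0.052) and with the offset (0.010). The cause was not tested.

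No record states that arrays with the same replicate number belong together. Among same-numbered arrays of different groups, 0 of 15 pairs had deviations correlated above 0.1 (from -0.019 to 0.027). These correlations run over all probe sets, many of them dim, so they cannot show that no animal is shared. With the replicate block 9 genes were higher and 19 lower in aTX against ctr, 3 and 8 in sTX against ctr, where Slc1a3 was lost and Slc1a5 gained, and 8 and 19 in aTX against sTX. Over all 72 probe sets of the transporters, 14 were higher and 25 lower in aTX against ctr, 3 and 9 in sTX against ctr and 10 and 24 in aTX against sTX, and 0 of the 12 genes with several had calls in opposite directions. Dim probe sets limit what can be called for 24 of the 53 genes.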

Other observations

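Of the 41 transporters with an upstream window, the median GC content was 60% for the 8 that were higher in aTX than in ctr, 55.2% for the 13 that were lower and 55.6% for the 20 that were not called, against 51.2% over all 33469 windows. The window of Slc7a12 had 33.6% and that of Slc7a1 73.2%.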
